A study of Mus musculus with 10 samples.

Results

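The genes described here are the integrins and Cdh-named cadherins of the mouse, taken by symbol from the annotation of the array: every gene whose symbol begins with Itga, Itgb or Cdh and ends as the family's genes do (Itga11, Itgb5, Cdh13). Of 48 such genes with 114 probes, 28 were detected on at least 1 of the 10 arrays at a detection p-value under 0.01, and these 28 are the members. The whole array covered 19057 genes, of which 11686 were detected on at least 1 array. Each gene was read from the probe with the highest mean over the 10 arrays. Members comprised 14 of 18 matrix-binding integrins, 6 of 7 leukocyte integrins and 8 of 23 cadherins. Integrins that lacked a detected probe were Itga2, Itga8, Itgb6, Itgb8 and Itgax, and the 15 such cadherins included Cdh3, Cdh5 and Cdh15, the P-cadherin, VE-cadherin and M-cadherin genes.

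RNA came from populations derived from bone marrow mesenchymal stem cells (MSC) of adult C57BL/6J mice. There was 1 array each of reprogrammed adipocytes, reprogrammed chondrocytes and reprogrammed osteocytes (the submitters' aCFU-F, cCFU-F and oCFU-F), of differentiated adipocytes, chondrocytes and osteocytes, of treated in vivo derived osteocytes, and of untreated in vivo derived osteocytes. Undifferentiated MSC stood on 2 arrays, MSC 1 and MSC 2, and were the only replicated group. The labels name neither the reprogramming procedure nor the treatment of the in vivo osteocytes, and say nothing of the animals or cultures behind each array. P-values here therefore measure only the spread between these samples. In the tests below the adipocyte, chondrocyte and osteocyte populations of a class stand as its replicates, so that spread includes differences between these lineages. The spread apart from lineage, as between the 2 MSC arrays, may be technical.

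Integrins are surface receptors made of an alpha and a beta subunit that join the extracellular matrix, or ligands on other cells, to the actin cytoskeleton. In stromal cells the beta1 subunit pairs with many alpha subunits for fibronectin, collagen and laminin, and alphav pairs with beta3 or beta5 for vitronectin. The beta2 and beta7 subunits belong to blood cells, as do the alpha subunits grouped here as leukocyte integrins. Itga4 is grouped here with the matrix-binding integrins. Cadherins hold neighbouring cells together by binding calcium and the same cadherin on the next cell, and in the marrow stroma and osteoblasts Cdh2 (N-cadherin) and Cdh11 (OB-cadherin) are the usual members.

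Levels are given on the log2 scale, from intensities corrected for background and quantile normalised between arrays, and the lowest value among detected probes lay at 5.36 to 5.78 depending on the array. Detected probes numbered 14896 to 16737 of 45281 per array. The osteocyte pair of arrays was deposited on a different intensity scale, with mean intensities of 413 (reprogrammed) and 324 (differentiated) against 538 on the other 8 arrays. That scale and the osteocyte lineage cannot be told apart. On the differentiated chondrocyte array 18 of 19 macrophage markers were detected and on the untreated in vivo osteocyte array 19 of 19. On the other 8 arrays 3 to 6 were detected. Summed over the list, their level was 194211 and 180882 intensity units on those arrays and 735 to 1695 on the others. Adipoq, Fabp4, Plin1, Lpl and Cidec, the 5 adipocyte markers measured, were all detected in differentiated adipocytes. Comp, of cartilage matrix, lay at 13.77 in differentiated chondrocytes, and Acan and Matn3 were not detected on any array. Col2a1 went against that label, at 11.09, 10.38 and 10.31 in reprogrammed adipocytes, chondrocytes and osteocytes, 8.28 in differentiated chondrocytes and 7.82 and 9.48 in MSC. Of the osteocyte genes Dmp1, Mepe, Sost and Fgf23 were not detected on any array, Phex was detected on 6 arrays but on no array of differentiated or in vivo osteocytes, and Pdpn on all 10. The osteoblast gene Bglap lay at 6.87 in treated and 12.24 in untreated in vivo osteocytes and 6.95 in differentiated osteocytes. Sp7, another, was not detected in treated in vivo osteocytes and lay at 9.27 in untreated ones, 8.99 in differentiated osteocytes and 9.56 on both MSC arrays, and Ibsp lay at 8.46 in differentiated chondrocytes.

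The members were detected on fewer arrays than genes at large. Of the 28, 5 were detected on all 10 arrays (17.9%), against 61.1% of the 11686 detected genes, and 16 were detected on 1 to 3 arrays (57.1%, against 20% of all). The 5 were Itgb1, Itga5, Itgav, Itgb5 and Itga3, all matrix-binding integrins. Members detected per array numbered from 9 in reprogrammed adipocytes to 16 in differentiated chondrocytes. The MSC arrays differed by a median of 0.33 log2 units over the members and 0.38 over all detected genes. Members at least 2-fold apart between the MSC arrays were Itga11, Itga9, Itga2b, Itgad, Cdh13 and Itgb1, 6 of 28. Single arrays are therefore counted below against both MSC arrays, with folds taken against the mean of the 2.

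**Figure D1:**
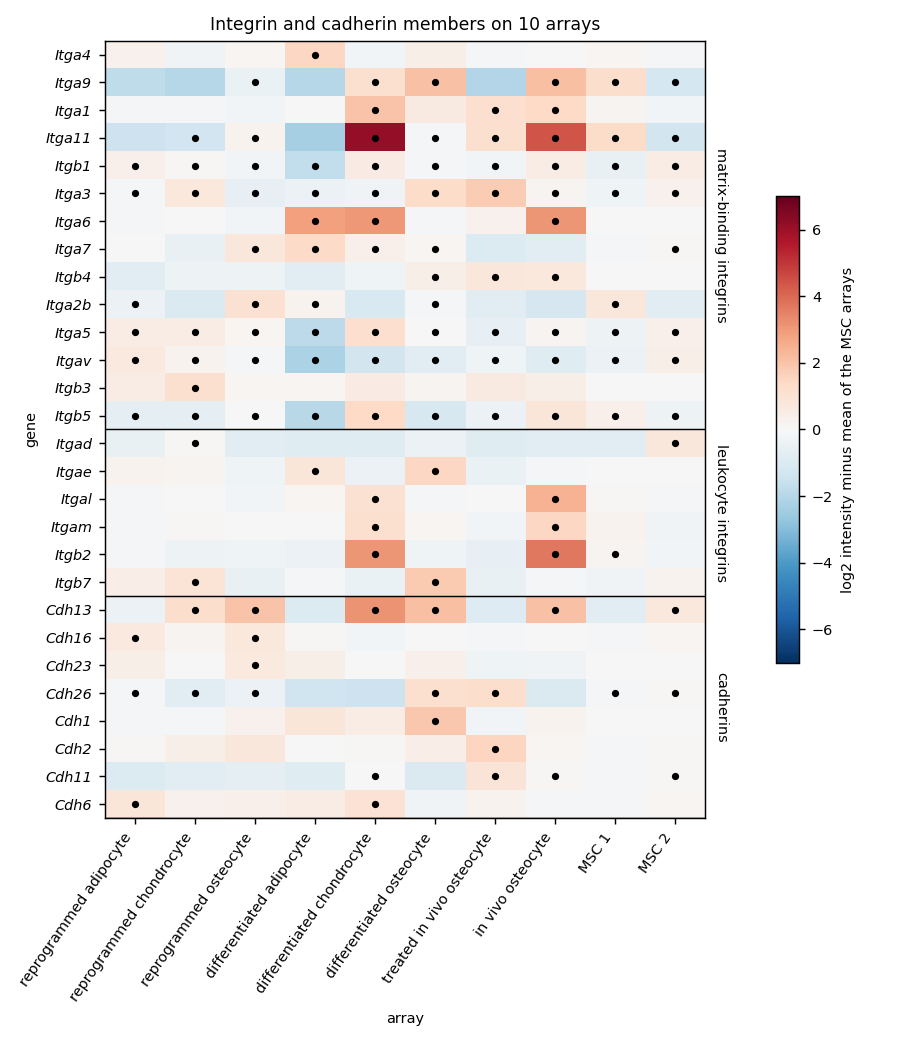
Log2 intensity of each of the 28 members (vertical axis) on each of 10 arrays (horizontal axis), as the difference from the mean of the 2 MSC arrays (colour scale, log2 units); a dot marks detection at a p-value under 0.01. Itga11 reaches the deepest red, at 13.07 in differentiated chondrocytes, and Itgb1, Itga5, Itgav, Itgb5 and Itga3 carry a dot on all 10 arrays.

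Among the matrix-binding integrins, the fibronectin and vitronectin receptor subunits were present throughout and shared a low value in differentiated adipocytes. In the sentences that follow, the 3 values of a class stand in the order adipocyte, chondrocyte, osteocyte. Itgb1, the common beta subunit, lay at 9.47, 9.19 and 8.92 in the reprogrammed populations, 7.42, 9.73 and 8.97 in the differentiated ones, 8.95 in treated and 9.64 in untreated in vivo osteocytes, and 8.58 and 9.67 in MSC. Itga5, its partner in the fibronectin receptor, lay at 10.05, 10.04 and 9.69 in reprogrammed and 7.72, 10.68 and 9.57 in differentiated populations, 8.97 in treated and 9.70 in untreated in vivo osteocytes, and 9.18 and 9.88 in MSC. For both genes the differentiated adipocyte array was the lowest of the 10. The other 9 arrays lay between 8.58 and 9.73 for Itgb1 and between 8.97 and 10.68 for Itga5.

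Itgav, the alpha subunit for vitronectin, lay at 8.83, 8.43 and 8.06 in reprogrammed and 5.96, 6.86 and 7.41 in differentiated populations, 7.87 in treated and 7.32 in untreated in vivo osteocytes, and 7.74 and 8.59 in MSC. Every reprogrammed value exceeded every differentiated value. Itgb5, a beta partner of alphav, lay at 11.02, 10.97 and 11.63 in reprogrammed and 9.74, 13.06 and 10.57 in differentiated populations, 11.28 in treated and 12.53 in untreated in vivo osteocytes, and 12.04 and 11.31 in MSC. Its highest values were those of differentiated chondrocytes and untreated in vivo osteocytes, and its lowest that of differentiated adipocytes. Itgb3, the other beta partner, was detected only in reprogrammed chondrocytes, at 5.49.

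In reprogrammed against differentiated adipocytes, Itgav was 7.30-fold higher, Itga5 5.01-fold, Itgb1 4.15-fold and Itgb5 2.42-fold, each from 1 array a side and without a test. Between reprogrammed and differentiated osteocytes the difference was 0.11 log2 units for Itga5 and -0.04 for Itgb1. Probes of the same gene differed for Itgav. Its probe with the next highest mean, detected on 5 arrays, lay at 4.86, 5.49 and 5.09 in reprogrammed and 4.95, 7.20 and 5.42 in differentiated populations, 7.60 in treated and 6.11 in untreated in vivo osteocytes, and 5.30 and 5.48 in MSC. That probe was lower in reprogrammed than in differentiated chondrocytes, opposite to the first, and was not detected in the adipocyte and osteocyte pairs. The next probe of Itga5 gave a difference of 2.42 in the adipocyte pair and that of Itgb1 a difference of 0.66, and Itgb5 had 1 probe.

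Because these 4 genes lay higher together in the adipocyte pair, their promoters are shown, each as the 300 bases that run from 250 before to 50 after the annotated start, from RefSeq on GRCm38.p6. The windows are chr8:128685404-128685703 (plus strand) for Itgb1, chr15:103366742-103367041 (minus) for Itga5, chr2:83724147-83724446 (plus) for Itgav and chr16:33829415-33829714 (plus) for Itgb5. Capitals mark GGGCGG or its reverse complement CCGCCC, the core of the GC box, and GAGGAA or its reverse complement TTCCTC, a core recognised by the myeloid factor PU.1.
Itgb1: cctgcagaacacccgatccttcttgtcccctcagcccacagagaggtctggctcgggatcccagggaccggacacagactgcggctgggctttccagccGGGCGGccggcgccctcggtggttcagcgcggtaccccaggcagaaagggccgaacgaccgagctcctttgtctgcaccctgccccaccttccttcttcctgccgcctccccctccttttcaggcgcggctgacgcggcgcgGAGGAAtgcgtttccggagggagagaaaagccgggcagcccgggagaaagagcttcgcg
Itga5: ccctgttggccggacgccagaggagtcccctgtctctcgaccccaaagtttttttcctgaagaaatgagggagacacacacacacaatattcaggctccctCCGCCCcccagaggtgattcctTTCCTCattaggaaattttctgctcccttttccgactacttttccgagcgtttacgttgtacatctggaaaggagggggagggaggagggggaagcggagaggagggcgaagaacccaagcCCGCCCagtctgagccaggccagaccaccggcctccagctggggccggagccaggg
Itgav: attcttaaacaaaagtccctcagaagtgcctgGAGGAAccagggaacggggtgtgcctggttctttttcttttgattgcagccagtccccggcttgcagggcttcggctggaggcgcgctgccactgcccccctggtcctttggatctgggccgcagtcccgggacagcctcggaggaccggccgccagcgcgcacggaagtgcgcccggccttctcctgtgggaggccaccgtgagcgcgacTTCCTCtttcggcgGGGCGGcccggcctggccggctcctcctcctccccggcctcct
Itgb5: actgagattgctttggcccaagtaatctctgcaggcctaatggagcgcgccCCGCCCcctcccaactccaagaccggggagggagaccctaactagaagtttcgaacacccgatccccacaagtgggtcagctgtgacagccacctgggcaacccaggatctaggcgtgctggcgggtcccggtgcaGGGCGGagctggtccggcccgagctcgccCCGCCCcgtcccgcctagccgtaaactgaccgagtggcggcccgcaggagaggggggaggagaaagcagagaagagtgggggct
GGGCGG was found on either strand in all 4 windows, 3 times in Itgb5, 2 times in Itga5 and 1 time each in Itgb1 and Itgav. It stood in 35.7% of 32851 mouse windows of this length and in 9 of the 16 windows available for members. GAGGAA was found in the windows of Itgb1, Itga5 and Itgav, in 28.3% of all windows and in 11 of the 16. No marked letters of the 2 motifs overlapped in any member window. RefSeq windows were matched for 15 of the 28 members. The unmatched members were Cdh1, Cdh2, Cdh11, Cdh13, Cdh16, Itga6, Itga7, Itgad, Itgae, Itgal, Itgb2, Itgb3 and Itgb4.

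**Figure D2:**
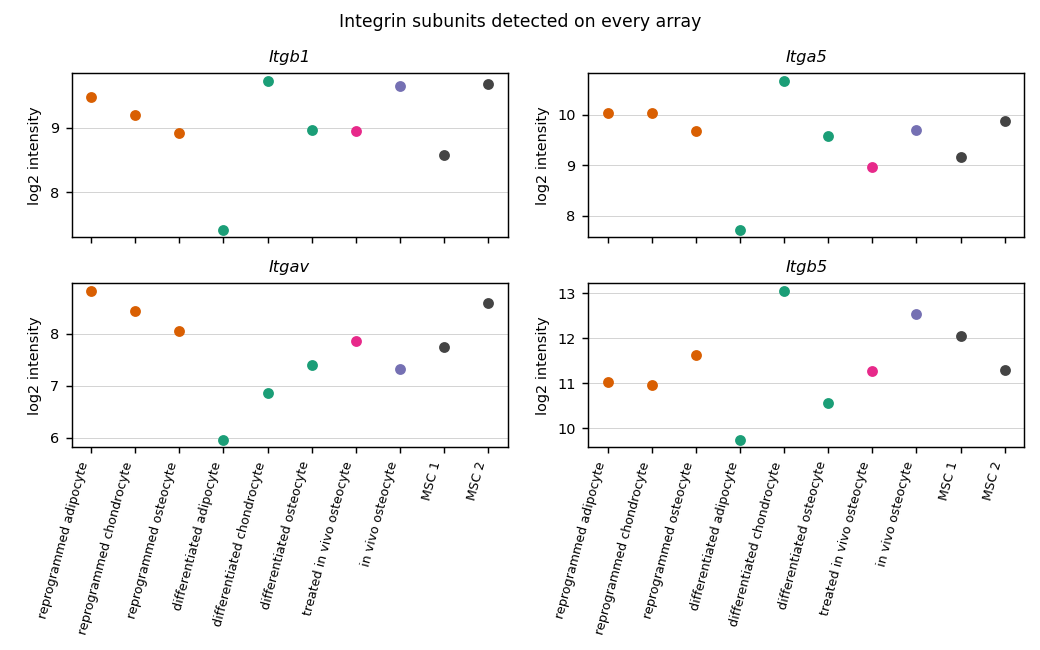
Log2 intensity (vertical axis, a scale of its own per gene) of Itgb1, Itga5, Itgav and Itgb5 on the 10 arrays (horizontal axis), with 1 point per array and all points detected. Differentiated adipocytes are the lowest point for each gene, at 7.42, 7.72, 5.96 and 9.74, and the 3 reprogrammed points of Itgav stand above its 3 differentiated points.

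The alpha subunit for platelet fibrinogen, Itga2b, lay at 5.76, 5.15 and 7.22 in reprogrammed and 6.43, 5.10 and 6.05 in differentiated populations, 5.40 in treated and 5.00 in untreated in vivo osteocytes, and 6.97 and 5.37 in MSC. It was detected in both osteocyte populations and both adipocyte populations and in MSC 1, and was 2.26-fold higher in reprogrammed than in differentiated osteocytes. Of 6 megakaryocyte markers, 0 were detected on any of those 5 arrays, and 3 and 2 on the differentiated chondrocyte and untreated in vivo osteocyte arrays, which lacked Itga2b.

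Among the collagen receptors, Itga11 had the widest range of all members. Itga11, the alpha11 subunit that binds fibrillar collagen on fibroblasts, lay at 5.43, 5.58 and 7.16 in reprogrammed and 4.59, 13.07 and 6.77 in differentiated populations, 8.00 in treated and 11.31 in untreated in vivo osteocytes, and 8.20 and 5.61 in MSC. It was not detected in the adipocyte populations of either class. The reprogrammed chondrocyte value was 180-fold lower than the differentiated one, and treated in vivo osteocytes stood 9.92-fold below untreated ones. The differentiated chondrocyte and untreated in vivo arrays lay 71.9-fold and 21.2-fold above the mean of MSC. Its other probes were not detected in reprogrammed chondrocytes and read 11.15 and 7.10 in differentiated ones.

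The Itga11 promoter window, shown because this gene had the widest range of the members, is chr9:62677605-62677904 (plus strand, RefSeq GRCm38.p6), with GAGGAA or TTCCTC in capitals.
Itga11: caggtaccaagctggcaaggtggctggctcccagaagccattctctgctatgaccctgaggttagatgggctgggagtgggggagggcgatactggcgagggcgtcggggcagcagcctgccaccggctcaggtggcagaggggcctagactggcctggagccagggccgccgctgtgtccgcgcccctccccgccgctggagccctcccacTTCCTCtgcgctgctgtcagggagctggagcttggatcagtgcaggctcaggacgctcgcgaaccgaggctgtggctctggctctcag
Its GC content was 68%, against a median of 52.7% over all windows, and it held GAGGAA 1 time and GGGCGG 0 times.

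Itga1, the alpha1 subunit for collagen IV and collagen I, was detected at 6.68 in differentiated chondrocytes and at 5.86 in treated and 6.06 in untreated in vivo osteocytes. Reprogrammed chondrocytes, at 4.54, lay at least 2.51-fold below differentiated ones. Here and below, "at least" marks a fold taken against the lowest detected signal of the array that lacked the gene. Macrophage markers, at 18 and 19 of 19 detected, stood highest on the 2 arrays that carried the highest Itga11 and Itga1, except that treated in vivo osteocytes had Itga1 with 3 of 19. Their part in the values of Itga11 and Itga1 was not tested. In these bulk samples fewer cells of a type and less RNA per cell cannot be told apart.

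Laminin receptors followed no common pattern. Itga3, whose alpha3 subunit binds laminin with beta1, lay at 6.78, 7.62 and 6.29 in reprogrammed and 6.44, 6.64 and 8.13 in differentiated populations, 8.66 in treated and 7.07 in untreated in vivo osteocytes, and 6.55 and 7.18 in MSC. Differentiated osteocytes and treated in vivo osteocytes were the highest. The reprogrammed osteocyte value was 3.58-fold below the differentiated one, and treated in vivo osteocytes were 3.02-fold above untreated ones.

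Itga6, the alpha6 subunit of the laminin receptors with beta1 and beta4, was on or off. It lay at 4.46, 4.53 and 4.37 in reprogrammed and 7.39, 7.58 and 4.45 in differentiated populations, 4.84 in treated and 7.64 in untreated in vivo osteocytes, and 4.57 and 4.51 in MSC. Only differentiated adipocytes, differentiated chondrocytes and untreated in vivo osteocytes had it. Reprogrammed adipocytes were at least 3.56-fold and reprogrammed chondrocytes at least 4.68-fold below their differentiated populations, and treated in vivo osteocytes at least 4.68-fold below untreated ones. The next probe of Itga6 was detected only in differentiated chondrocytes, at 5.75.

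Itga7, the alpha7 subunit of muscle laminin receptors, lay at 5.43, 4.96 and 6.29 in reprogrammed and 6.80, 5.83 and 5.60 in differentiated populations, 4.51 in treated and 4.72 in untreated in vivo osteocytes, and 5.37 and 5.59 in MSC. Reprogrammed adipocytes were at least 2.36-fold below differentiated ones. Of 7 skeletal muscle markers, 1 was detected in each of these 2 adipocyte populations. Itgb4, the beta partner of alpha6 in hemidesmosomes, was detected at 5.67 in differentiated osteocytes and at 6.07 in treated and 6.00 in untreated in vivo osteocytes.

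The alpha9 and alpha4 subunits bind tenascin, VCAM-1 and fibronectin. Itga9 lay at 5.02, 4.83 and 6.36 in reprogrammed and 4.83, 7.92 and 8.87 in differentiated populations, 4.77 in treated and 8.95 in untreated in vivo osteocytes, and 8.03 and 5.61 in MSC. Differentiated chondrocytes and osteocytes, untreated in vivo osteocytes and MSC 1 were high. Reprogrammed chondrocytes were at least 5.91-fold below the differentiated population, reprogrammed osteocytes 5.70-fold, and treated in vivo osteocytes at least 11.6-fold below untreated ones. The next probe of Itga9 was detected only in differentiated osteocytes, at 5.74. That probe read 4.65 in differentiated chondrocytes, 4.91 in untreated in vivo osteocytes and 4.65 in MSC 1. Itga4 was detected only in differentiated adipocytes, at 6.21, and reprogrammed adipocytes lay at least 1.57-fold lower. Of 8 neutrophil markers, 2 were detected in reprogrammed adipocytes, 3 in differentiated adipocytes (S100a8, Mpo and Elane) and 0 in MSC, with a summed level of 736 in differentiated adipocytes and 185 to 1343 on the other arrays. Their part in the Itga4 value was not tested. Of its 6 probes only 1 other was detected, in differentiated chondrocytes at 5.53.

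**Figure D3:**
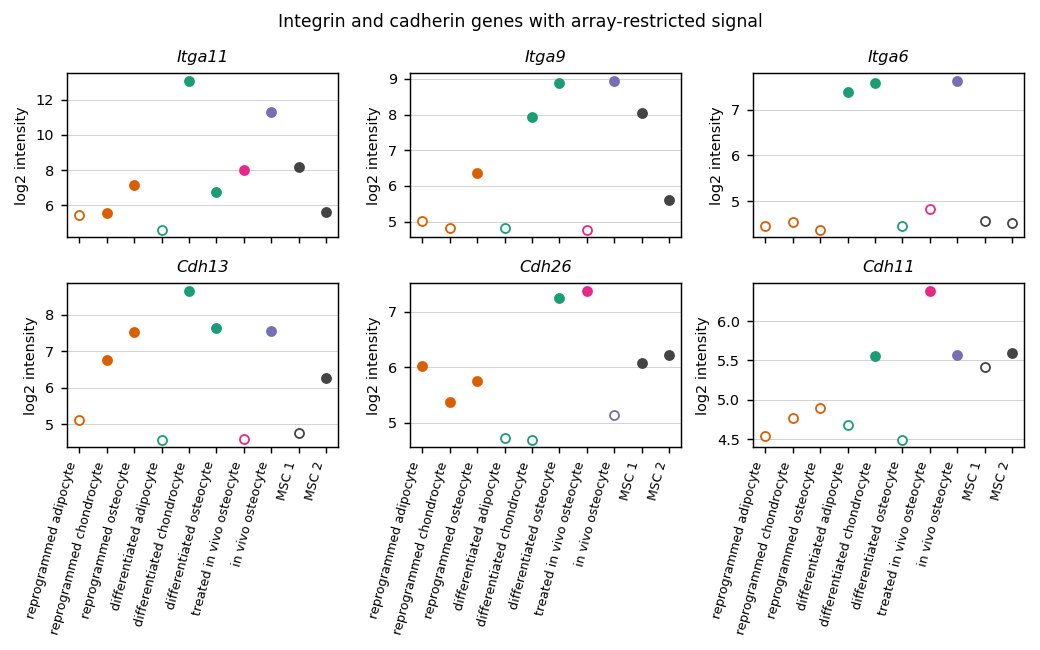
Log2 intensity (vertical axis, a scale of its own per gene) of Itga11, Itga9, Itga6, Cdh13, Cdh26 and Cdh11 on the 10 arrays (horizontal axis), with 1 point per array; filled points were detected and open points were not. Itga6 is detected in differentiated adipocytes (7.39), differentiated chondrocytes (7.58) and untreated in vivo osteocytes (7.64) and open elsewhere.

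Leukocyte integrins fell into those that stood with the macrophage markers and those that did not. Itgb2, the common beta subunit of leukocyte integrins (CD18), lay at 5.48, 5.20 and 5.27 in reprogrammed and 5.12, 8.63 and 5.25 in differentiated populations, 4.98 in treated and 9.22 in untreated in vivo osteocytes, and 5.74 and 5.37 in MSC. Itgal, the alpha subunit of LFA-1, lay at 4.58, 4.75 and 4.52 in reprogrammed and 4.85, 5.76 and 4.57 in differentiated populations, 4.71 in treated and 7.17 in untreated in vivo osteocytes, and 4.77 and 4.65 in MSC. Itgam, the alpha subunit of the complement receptor Mac-1, lay at 4.56, 4.73 and 4.60 in reprogrammed and 4.64, 5.75 and 4.79 in differentiated populations, 4.46 in treated and 6.10 in untreated in vivo osteocytes, and 4.91 and 4.40 in MSC. The 3 genes were detected in differentiated chondrocytes and untreated in vivo osteocytes and, for Itgb2, also at 5.74 in MSC 1.

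Reprogrammed chondrocytes were at least 9.66-fold below differentiated chondrocytes for Itgb2, at least 1.33-fold for Itgal and at least 1.31-fold for Itgam. Treated in vivo osteocytes were at least 14.0-fold, 3.39-fold and 1.61-fold below untreated ones for the same genes. Itgax, the alpha subunit marking dendritic cells and many macrophages, was not detected on any array. The arrays with Itgb2, Itgal and Itgam were those with 18 and 19 of 19 macrophage markers. Of these markers Cd14 was detected on all 10 arrays, Csf1r, Lyz2 and Cd53 on 9, Aif1 on 7 and Mrc1 on 5. In treated in vivo osteocytes Csf1r lay at 8.45 and Lyz2 at 9.02. The rest, among them Ptprc, Adgre1 and C1qa, were not detected on the other 8 arrays. The part of macrophage RNA in these values was not tested. Fermt3, the kindlin that activates integrins in blood cells, was likewise detected only there, at 9.13 in differentiated chondrocytes and 9.53 in untreated in vivo osteocytes, as was Parvg, the blood-cell parvin, at 6.11 and 6.76.

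The Itgam promoter, chr7:128062390-128062689 (plus strand, RefSeq GRCm38.p6), is shown as that of the leukocyte subunit with a matched window whose signal stood with the macrophage markers. Capitals again mark both motifs on either strand.
Itgam: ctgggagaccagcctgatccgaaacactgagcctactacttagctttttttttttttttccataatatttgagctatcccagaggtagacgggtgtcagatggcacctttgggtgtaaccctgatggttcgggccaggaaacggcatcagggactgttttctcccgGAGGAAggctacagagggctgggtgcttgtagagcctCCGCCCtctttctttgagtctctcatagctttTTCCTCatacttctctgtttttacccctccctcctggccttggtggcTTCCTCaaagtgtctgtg
It held GAGGAA 3 times on either strand, the highest count among the 16 member windows, and GGGCGG 1 time. On chromosome 7 the genes Itgam, Itgax and Itgad are direct neighbours in the RefSeq gene order.

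Itgad, the third of these neighbours and an alpha partner of beta2, lay at 4.92, 5.50 and 4.70 in reprogrammed and 4.61, 4.58 and 5.04 in differentiated populations, 4.59 in treated and 4.66 in untreated in vivo osteocytes, and 4.64 and 6.23 in MSC. It was detected in reprogrammed chondrocytes and MSC 2, where the next probe read 5.53 and 6.84, and not on the arrays with macrophage markers. Itgae, the alphaE subunit of lymphocytes that reside in epithelium, lay at 5.28, 5.23 and 4.74 in reprogrammed and 5.87, 4.61 and 6.50 in differentiated populations, 4.55 in treated and 4.94 in untreated in vivo osteocytes, and 5.07 and 4.99 in MSC. Itgb7, its beta partner, lay at 5.48, 5.98 and 4.52 in reprogrammed and 4.88, 4.55 and 6.88 in differentiated populations, 4.51 in treated and 4.89 in untreated in vivo osteocytes, and 4.80 and 5.27 in MSC.

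Both genes had their highest value in differentiated osteocytes. Reprogrammed osteocytes were at least 2.15-fold lower for Itgae and at least 2.80-fold lower for Itgb7, and Itgb7 was at least 1.46-fold higher in reprogrammed than in differentiated chondrocytes. Of 6 lymphoid markers, 0 were detected in differentiated osteocytes and 1 each in reprogrammed chondrocytes, reprogrammed osteocytes and MSC 2.

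**Figure D4:**
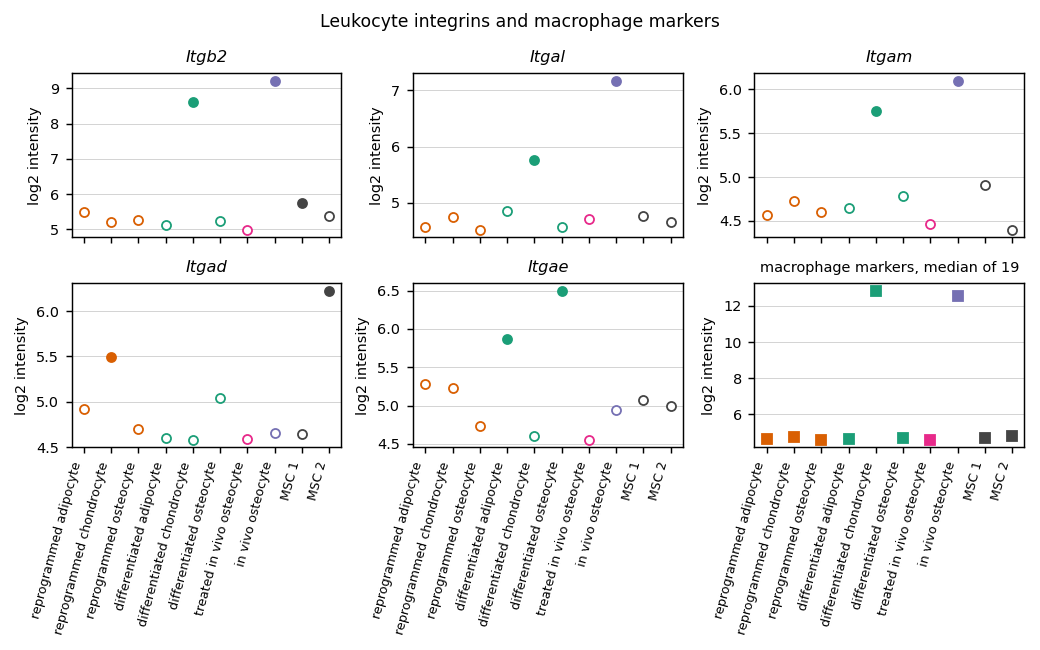
Log2 intensity (vertical axes, a scale of its own per panel) of Itgb2, Itgal, Itgam, Itgad and Itgae and the median of 19 macrophage markers on the 10 arrays (horizontal axis), with 1 point per array; circles are filled where detected, and squares show the marker median. Itgb2 (8.63 and 9.22), Itgal and Itgam peak on the differentiated chondrocyte and untreated in vivo osteocyte arrays, as the marker median does, and Itgad and Itgae do not.

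Cadherins were sparse, with 2 of 5 type I, 2 of 13 type II and 4 of 5 other cadherins detected. Cdh13, or T-cadherin, which is held in the membrane by a lipid anchor and binds adiponectin, lay at 5.10, 6.75 and 7.53 in reprogrammed and 4.56, 8.66 and 7.63 in differentiated populations, 4.59 in treated and 7.55 in untreated in vivo osteocytes, and 4.75 and 6.27 in MSC. The chondrocyte and osteocyte populations of both classes carried it, and the adipocyte populations did not. Reprogrammed chondrocytes were 3.78-fold below differentiated ones, and treated in vivo osteocytes at least 4.41-fold below untreated ones.

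Cdh26, a cadherin studied in epithelium and eosinophils, lay at 6.02, 5.38 and 5.76 in reprogrammed and 4.72, 4.69 and 7.24 in differentiated populations, 7.38 in treated and 5.14 in untreated in vivo osteocytes, and 6.07 and 6.21 in MSC. It was detected in the 3 reprogrammed populations and both MSC arrays, and among the differentiated populations only in osteocytes. Reprogrammed adipocytes were at least 1.18-fold higher and reprogrammed osteocytes 2.79-fold lower than the differentiated population, and treated in vivo osteocytes at least 3.90-fold higher than untreated ones. The next probe of Cdh26 was not detected in the osteocyte pair. Epithelial markers were detected as 3 of 7 in treated in vivo osteocytes (Krt8, Krt19 and Cldn7), 1 of 7 in untreated ones and 0 on the other 8 arrays, with summed levels of 291, 201 and 166 to 209, and Epcam was not detected on any. Their part in the Cdh26 values was not tested.

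Cdh11, the OB-cadherin of osteoblasts and fibroblasts, lay at 4.54, 4.77 and 4.90 in reprogrammed and 4.68, 5.56 and 4.49 in differentiated populations, 6.39 in treated and 5.57 in untreated in vivo osteocytes, and 5.42 and 5.59 in MSC. The probe read was detected in none of the reprogrammed populations. The next probe of Cdh11 was detected on 3 arrays, at 6.37 in treated and 5.55 in untreated in vivo osteocytes and 5.45 in reprogrammed osteocytes. That probe lay at 4.41 in differentiated osteocytes. Cdh2, or N-cadherin, was detected only in treated in vivo osteocytes, at 6.00, which was at least 1.5-fold above the untreated value of 4.60. Its other probe was detected only in untreated in vivo osteocytes, at 5.47, against 5.05 in treated ones.

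Cdh1, the E-cadherin of epithelium, was detected only in differentiated osteocytes, at 6.79, with reprogrammed osteocytes at least 2.63-fold lower. Of 7 epithelial markers, 0 were detected on that array, and Epcam on no array. Cdh6, a kidney and neural cadherin, was detected in reprogrammed adipocytes (5.75) and differentiated chondrocytes (5.88). Cdh16, the kidney cadherin, was detected in reprogrammed adipocytes (5.62) and reprogrammed osteocytes (5.70). Cdh23, the tip-link cadherin of hair cells, was detected by the probe read only in reprogrammed osteocytes, at 5.69. Its next probe was detected only in untreated in vivo osteocytes, at 5.53. These last values lay close to the lowest detected signal of their arrays.

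The comparison of reprogrammed with differentiated populations asked what reprogramming changed in common across the 3 lineages. The limma fit held 6 arrays, paired by lineage. Of the 28 members, 16 were detected on at least 2 of these 6 arrays and tested, and 0 were called at an adjusted p under 0.05, against 49 of 17728 probes (0.276%). Of the 16, 8 lay higher and 8 lower, with a median log2 difference of -0.01 against 0.10 over all probes. The matrix-binding integrins split into 5 higher and 5 lower.

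Before adjustment, 1 member had a p under 0.05 on the higher side, where 11.9% of all probes did, and 2 on the lower side, where 7.83% did. Itgav averaged 8.44 ± 0.39 in reprogrammed and 6.74 ± 0.73 in differentiated populations (SD, n = 3 each). Its difference was 1.70 ± 0.49 (SE, 3 pairs), higher in 3 of 3 lineages (limma adjusted p = 0.16). With all detected probes of the gene averaged, the difference was 0.11 (adjusted p = 0.90). Itga6 averaged 4.45 ± 0.08 in reprogrammed and 6.47 ± 1.76 in differentiated populations (SD, n = 3 each). Its difference was -2.02 ± 0.64 (SE, 3 pairs), at least 2.05-fold lower (limma adjusted p = 0.18). The pair values were -2.93, -3.05 and -0.08 in adipocytes, chondrocytes and osteocytes.

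Itga9 averaged 5.41 ± 0.83 in reprogrammed and 7.21 ± 2.12 in differentiated populations (SD, n = 3 each). Its difference was -1.80 ± 0.66 (SE, 3 pairs), at least 2.73-fold lower and lower in 2 of 3 lineages (limma adjusted p = 0.22). Without the osteocyte arrays Itga6 passed the test at -2.99 (limma adjusted p = 0.045), and without the adipocyte arrays Itga9 passed at -2.80 (adjusted p = 0.039). Over all probes the count of calls was 330 and 211 under those omissions, in place of 49.

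Other members did not come near the threshold. Itga11 differed by -2.09 ± 1.56 (SE, 3 pairs; limma adjusted p = 0.50), and by 0.62 without the chondrocyte arrays. Differences and limma adjusted p-values were 0.49 ± 0.56 and 0.66 for Itgb1, 0.57 ± 0.34 and 0.40 for Cdh16, -0.49 ± 0.53 and 0.65 for Cdh13, and 0.17 ± 0.58 and 0.90 for Cdh26. Among the tested members the groups did not overlap for Itgav and Cdh16, both higher, where 16.1% of all probes had groups apart in that direction, and for 0 on the lower side, where 10.1% did. Itgb2, Itgal and Itgam were detected on 1 of the 6 arrays and were not tested.

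**Figure D5:**
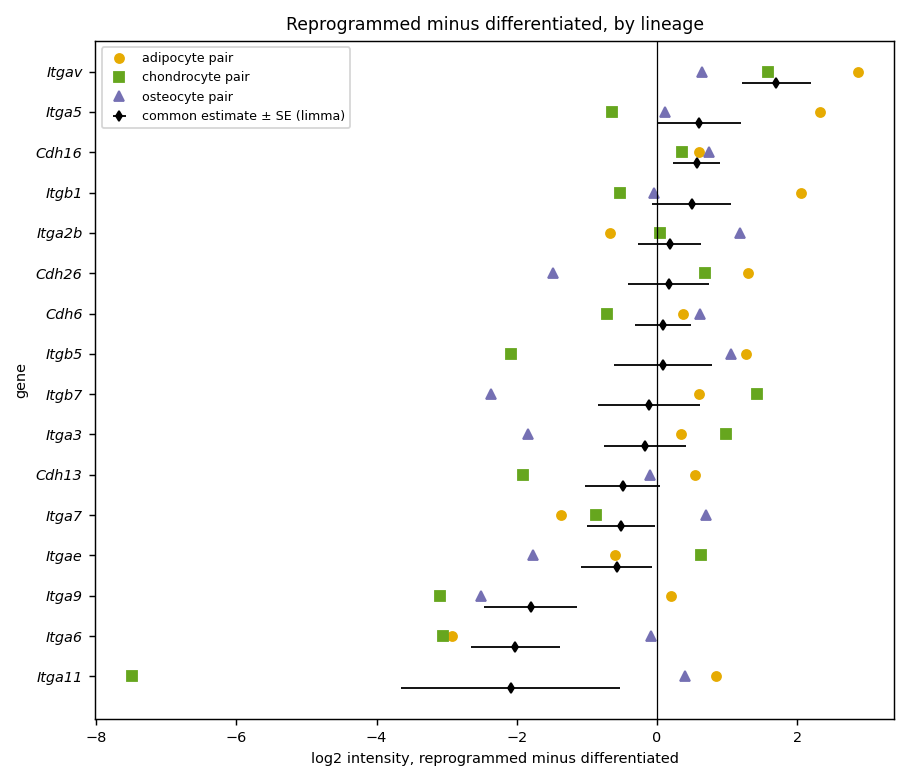
Log2 intensity difference, reprogrammed minus differentiated (horizontal axis), for the 16 tested members (vertical axis), in the adipocyte, chondrocyte and osteocyte pairs (coloured symbols) with the limma estimate and its SE (black). Itgav lies above 0 in all 3 pairs, the chondrocyte pair of Itga11 lies at -7.49, and for Itgb5, Cdh26 and Itgb7 pairs lie on both sides of 0.

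Within single lineages there is 1 array a side and no test, and a member counts here at a difference of 2-fold or more with detection on the higher side. In the adipocyte pair 5 members were higher (14.8% of 11686 genes were) and 3 lower (15.1%). The higher ones were Itgav, Itga5, Itgb1, Itgb5 and Cdh26, and the lower ones Itga6, Itga7 and Itga4. In the chondrocyte pair 2 members were higher (16.8% of genes) and 9 lower (18%). Itgav, 2.98-fold, and Itgb7 were higher, and the lower ones were Itga11, Itgb2, Itga9, Itga6, Itga1, Itgb5 (4.25-fold), Cdh13, Itgam and Itgal. In the osteocyte pair 2 members were higher (7.52% of genes) and 6 lower (10.7%). Itga2b and Itgb5 (2.09-fold) were higher, and Itga9, Itgb7, Itga3, Itgae, Cdh1 and Cdh26 lower. Of the 38 differences counted in these pairs and in the in vivo pair described below, 14 had another probe that was detected in the pair, which ran the same way for 12 and the opposite way for Itgav in the chondrocyte pair and Cdh2 in the in vivo pair. Counts use measured values, also of an undetected side. By the bound alone, differences under 2-fold are those of Cdh26 and Itga4 in the adipocyte pair, Itgal, Itgam and Itgb7 in the chondrocyte pair, and Cdh2 and Itgam in the in vivo pair. Macrophage markers moved with the chondrocyte list, with 5 of 19 detected and a summed level of 853 in reprogrammed chondrocytes and 18 of 19 and 194211 in differentiated ones. Their part in it was not tested.

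The comparison of differentiated populations with MSC asked what differentiation changed across lineages. By limma over 8 arrays, 0 of 19 tested members were called, against 3 of 18131 probes (0.0165%). Before adjustment, p was under 0.05 for Itga6 on the higher side and Itgav on the lower (3.14% and 5.53% of probes). Itga6 averaged 6.47 ± 1.76 in differentiated populations (SD, n = 3) and 4.54 ± 0.04 in MSC (SD, n = 2). The difference was 1.93 ± 0.83 (SE), at least 1.92-fold higher for the mean of the 3 populations (limma adjusted p = 0.57). Itga6 was detected in 2 of these 3 populations. Itgav averaged 6.74 ± 0.73 in differentiated populations (SD, n = 3) and 8.17 ± 0.60 in MSC (SD, n = 2). The difference was -1.43 ± 0.50 (SE; limma adjusted p = 0.45), and all 3 populations lay below both MSC arrays. With all detected probes of Itgav averaged, its difference was -0.18. Differences and limma adjusted p-values were 1.24 ± 2.09 and 0.91 for Itga11, 1.44 ± 1.18 and 0.77 for Cdh13, -0.60 ± 0.39 and 0.72 for Cdh11, -0.59 ± 0.72 and 0.86 for Cdh26, -0.42 ± 0.65 and 0.90 for Itgb1, and 0.78 ± 0.93 and 0.86 for Itgb2. Without the chondrocyte arrays Itga11 had -1.22. Among tested members, groups did not overlap for Itga7, which lay higher (as 7.77% of probes did), and Itgav, which lay lower (as 13.7% did).

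The comparison of reprogrammed populations with MSC asked what still set them apart, in the same limma fit. Of 19 tested members 0 were called, as were 0 of 18131 probes (0%), and 0 members had a p under 0.05 before adjustment, as 0.254% of probes did on the higher side and 0.143% on the lower. The spread of this fit includes the differentiated arrays. A p that misses the threshold does not show that the populations were alike. Differences were -1.42 ± 1.17 for Itga9, -0.85 ± 2.09 for Itga11, -0.47 ± 0.84 for Itgb5, 0.07 ± 0.65 for Itgb1 and -0.24 ± 0.93 for Itgb2 (SE; limma adjusted p = 1.0 for each). Among cadherins they were 0.95 ± 1.18 for Cdh13, 0.54 ± 0.32 for Cdh16 and -0.77 ± 0.39 for Cdh11 (adjusted p = 1.0 for each). By the probe read, Cdh11 was not detected in reprogrammed populations and was detected in 1 of 2 MSC arrays. MSC 1 read 5.42, under the lowest detected value of that array (5.58), so no least fold is given for Cdh11. The next probe of Cdh11 lay at 4.55, 4.70 and 5.45 in reprogrammed populations and 5.00 and 4.67 in MSC. Among tested members, groups did not overlap for Cdh6 and Cdh16 on the higher side (7.42% of probes) and for Cdh11 and Cdh26 on the lower side (7.4%).

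Array by array, and without a test, few members left the MSC range in reprogrammed populations and more did in differentiated ones. Folds are against the mean of the 2 MSC arrays, so "at least" is no limit against the MSC array with the higher value. Counting members whose measured values lay at least 2-fold from both MSC arrays, with bounds printed where 1 side was not detected and some of them under 2-fold, reprogrammed adipocytes had 0 higher (0.171% of 11686 genes were) and 0 lower (0.847%). Reprogrammed chondrocytes had 1 higher (0.308%), Itgb3, and 0 lower (0.616%). Itgb3 read 5.49 there and was not detected in MSC, where the lowest detected values were 5.58 and 5.48, so no difference from MSC is shown for it. Reprogrammed osteocytes had 1 higher (0.95%), Cdh13 at least 3.05-fold against the MSC mean, and 0 lower (0.445%). Cdh13 read 7.53 there and 6.27 in MSC 2, where it was detected. Its other probes read 5.44 and 5.79 in reprogrammed osteocytes, 5.38 and 5.63 in MSC 2, and 4.98 and 4.83 in MSC 1.

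Differentiated adipocytes had 3 members higher (8.56% of genes) and 6 lower (8.86%) than MSC. Itga6 was at least 3.63-fold, Itga7 at least 2.32-fold and Itga4 at least 1.60-fold higher. Itgav was 4.62-fold, Itgb5 3.81-fold, Itga5 3.50-fold and Itgb1 3.27-fold lower, Itga11 at least 2.18-fold and Cdh26 at least 1.29-fold. Differentiated chondrocytes had 6 higher (12.2%) and 1 lower (9.47%). Besides Itga11 these were Cdh13 at least 6.67-fold, Itgb2 at least 8.10-fold, Itga6 at least 4.15-fold, Itga1 at least 2.22-fold and Itgb5 2.60-fold higher, and Cdh26 at least 1.64-fold lower. The MSC array with detection read 6.27 for Cdh13 (MSC 2) and 5.74 for Itgb2 (MSC 1). Differentiated osteocytes had 5 higher (4.22%) and 0 lower (2.44%), Cdh13 at least 3.25-fold, Itgb7 at least 2.55-fold, Cdh1 at least 2.40-fold, Itgae at least 1.96-fold and Cdh26 2.14-fold.

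Treated in vivo osteocytes had 4 members higher than MSC (6.38% of genes) and 0 lower (6.45%). Itga3 was 3.48-fold, Cdh26 2.36-fold, Cdh2 at least 1.38-fold and Itga1 at least 1.26-fold higher. Untreated in vivo osteocytes had 7 higher (11.6%) and 0 lower (7.35%). Besides Itga11 these were Itgb2 at least 12.2-fold, Itga6 at least 4.31-fold, Itgal at least 3.12-fold, Cdh13 at least 3.08-fold, Itgam at least 1.48-fold and Itga1 at least 1.45-fold. Itga1 was the only member on both lists.

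The treated and untreated in vivo osteocytes were compared directly, with 1 array each and no test. Treated osteocytes were 2-fold or more higher for 3 members (12.9% of 11686 genes) and lower for 8 (16.1%). Cdh26, Itga3 and Cdh2 were higher. Itgb2, Itga9, Itga11, Cdh13, Itga6, Itgal, Itgam and Itgb5 (2.38-fold) were lower. Macrophage markers moved with this list, with 3 of 19 detected and a summed level of 1695 in treated osteocytes and 19 of 19 and 180882 in untreated ones. Of the stromal markers 8 of 9 were detected on each array, with summed levels of 30042 and 12724. The part of either in the differences was not tested.

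Genes that work with integrins and cadherins were taken from lists of catenins, integrin adaptors and integrin ligands. In reprogrammed minus differentiated populations, 1 of 22 tested adaptors was called by limma, as a fall, where 0.276% of all probes were called. Of 5 tested catenins and 24 tested ligands 0 were called. Before adjustment, p was under 0.05 for 6 adaptors on the higher and 2 on the lower side, for 3 and 2 ligands and for 0 catenins, where 11.9% of all probes were higher and 7.83% lower. Tns1, a tensin that ties integrins to actin, lay at 4.64, 6.16 and 5.05 in reprogrammed and 8.52, 9.50 and 8.56 in differentiated populations, and fell by 3.58 ± 0.34 (SE, 3 pairs; limma adjusted p = 0.046). In MSC it lay at 4.88 and 5.53, within the reprogrammed range. The in vivo pair, outside this fit, went the other way, at 9.13 in treated and 7.47 in untreated in vivo osteocytes. Tns1 was detected on 7 of the 10 arrays, and not in reprogrammed adipocytes, reprogrammed osteocytes or MSC 1. The difference uses the measured values on arrays without detection and is not a bound. The call was lost under 5 of 12 alternatives run after it was seen. Its limma adjusted p was 0.11 without background correction, 0.058 with an offset of 50, 0.19 without the detection filter, 0.050 from the value table and 0.23 with the in vivo pair added, and the difference stayed below 0 in all 12.

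Flna, or filamin A, an actin crosslinker that binds beta subunits, lay at 11.38, 11.38 and 11.39 in reprogrammed and 7.68, 10.31 and 9.74 in differentiated populations (difference 2.14 ± 0.56, adjusted p = 0.14). Tnc, or tenascin-C, a ligand of alpha9, lay at 10.60, 10.20 and 10.68 in reprogrammed and 4.91, 10.00 and 5.42 in differentiated populations (3.72 ± 1.05, adjusted p = 0.15). Every reprogrammed value of Flna and of Tnc stood above every differentiated value, without passing the test. Of all probes tested, 16.1% had groups apart in that direction. Tnc was not detected in differentiated adipocytes and osteocytes, so its difference rests there on values without detection. Fn1, or fibronectin, the ligand of alpha5 beta1, lay at 11.60, 11.19 and 12.83 in reprogrammed and 7.46, 13.18 and 11.67 in differentiated populations (1.10 ± 1.05, adjusted p = 0.60). Its lowest value, like those of Itga5 and Itgb1, was that of differentiated adipocytes.

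The list medians were 0.53 for adaptors, 0.27 for ligands and 0.09 for catenins, against 0.10 over all probes. In differentiated populations minus MSC 0 genes of the 3 lists were called by limma, where 0.0165% of all probes were. A p under 0.05 before adjustment was seen for 1 gene on the higher side and 4 on the lower, where 3.14% and 5.53% of all probes had it. The medians were -0.27 for adaptors, -0.70 for ligands and -0.42 for catenins against -0.09 over all probes. In reprogrammed populations minus MSC 0 were called too, as were 0% of all probes. A p under 0.05 before adjustment was seen for 0 genes, against 0.254% of all probes on the higher side and 0.143% on the lower. The medians were 0.06, 0.09 and -0.06 against 0.01. Icam1, the ligand of LFA-1 and Mac-1, was detected in differentiated chondrocytes at 10.51 and in treated and untreated in vivo osteocytes at 9.69 and 10.00. Unlike Itgb2, Itgal and Itgam, it was thus present in treated in vivo osteocytes.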

How the data were processed

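RNA of 10 samples was measured on mouse Illumina bead arrays, 1 array per sample, with groups taken from the labels. The deposited scanner table lists 45281 probes, each with a bead intensity and a detection p-value on every array, per the file headers. For the scans, earlier steps by the authors are not given in the sources used here. Intensities of 8 arrays had nearly the same distribution, and those of the osteocyte pair did not. The deposited series value table is linear for those 8 arrays and log2 for the osteocyte pair. Its probe IDs match the scanner table for that pair alone, so it was used only as an alternative, after a match by rank that placed all 45281 lines.

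Intensities were corrected with normexp from the detection p-values (offset 16), quantile normalised and set on the log2 scale with neqc (limma 3.58.1, R 4.3.3). Detection meant a p-value under 0.01. Symbols came from the platform annotation, updated through RefSeq: 34885 probes had 1 symbol, 18 several and 10378 none. The limma tests (lmFit, eBayes) took probes detected on 2 or more of the arrays fitted, with Benjamini-Hochberg adjustment over all of them and calls under 0.05. Reprogrammed and differentiated populations were compared over 6 arrays blocked by lineage, and both classes were compared with MSC in 1 fit of 8 arrays. For the folds given as "at least", and only there, a gene lacking on 1 side was set to the lowest detected log2 value of its array, or its own if higher. Tests, means, differences and counts used the measured values. Code was tested on simulated data.

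Members and lists were chosen with earlier results of these data known. Named with every value were Itgb1, the detected leukocyte integrins, the 10 matrix-binding integrins of widest range, and Cdh11, Cdh13 and Cdh26. The rule allowed 10 cadherins, of which 8 were detected and named. The other detected cadherins were given with values on some arrays only. Each test names the 3 integrins and 3 cadherins of largest difference and Itgb1, Itgb2 and Cdh11. Itga1, Itga4, Itgb3 and Itgb4, the pathway genes, the lineage markers, and Itgav in the first test were named outside that rule after their values were seen. By linear mean another probe would have been read for Cdh2 and Itgad. Alternatives varied background, scaling, offset, filter, source of values, probe choice, fold, block and arrays.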

Additional observations from a re-analysis of the deposited data

Results flagged for a closer look

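Members whose measured values lay 2-fold or more apart in opposite directions in different lineages are given here. The difference between lineages was not tested, since each pair holds 1 array a side. Cdh26 in reprogrammed minus differentiated populations had 1.29 log2 units in the adipocyte pair and -1.48 in the osteocyte pair. Differentiated adipocytes lacked detection of Cdh26, and the bound there was at least 1.18-fold. Itgb5 had 1.28 in the adipocyte pair, -2.09 in the chondrocyte pair and 1.06 in the osteocyte pair. Itgb7 had 1.43 in the chondrocyte pair and -2.36 in the osteocyte pair. Each has 1 side without detection, with bounds of at least 1.46-fold and 2.80-fold.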

How the results depend on the processing

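No paired analysis was possible because the groups share fewer than 2 replicate numbers, which concerns those numbers alone: reprogrammed and differentiated populations were paired by lineage in the fit reported. In reprogrammed minus differentiated, 49 probes were called as reported. The count was 0 without background correction, 10 with an offset of 50, 0 without the detection filter, 227 with probes detected on every array of a class, 15 from the value table after rank match, 344 without the lineage block and 0 with the in vivo pair added. Members called stayed at 0 in each of these. Leaving out a lineage gave 55 to 330 probes and 0 to 1 members, which were Itga9 without the adipocyte arrays and Itga6 without the osteocyte arrays. In differentiated minus MSC the count was 1 without the detection filter and 0 to 11 with arrays left out, with 0 members throughout.

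Some signs turned. In reprogrammed minus differentiated, Cdh26 had -0.0049 without background correction, -0.0082 with an offset of 50, and -0.40 to 0.99 with a lineage left out. Itgb1 had -0.29 to 1.01, Itga11 -3.55 to 0.62 and Cdh13 -1.01 to 0.22 over those omissions. In differentiated minus MSC, with arrays left out, Itgb1 ranged over -0.97 to 0.22 and Itga11 over -1.22 to 3.01. In reprogrammed minus MSC, Itgb1 had -0.012 with 75th percentile scaling and -0.47 to 0.61 with arrays left out, and Itga11 -2.14 to 0.44. With the detected probes of a gene averaged, Itgav had 0.11 in reprogrammed minus differentiated and -0.18 in differentiated minus MSC, in place of 1.70 and -1.43; by construction this average takes in probes detected on 5 and 2 arrays only.

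Counts of members in single pairs moved too, and the cause of these changes was not tested. Without background correction the adipocyte pair had 5 in place of 8, the chondrocyte pair 7 in place of 11 and the osteocyte pair 4 in place of 8. The adipocyte count was also 5 with an offset of 50 and from the value table. At 3-fold the counts were 4, 7 and 5, and at 1.5-fold the chondrocyte count was 18. Against MSC at 1.5-fold, counts were 2, 4 and 4 in reprogrammed adipocytes, chondrocytes and osteocytes in place of 0, 1 and 1, 12 and 8 in differentiated chondrocytes and osteocytes in place of 7 and 5, and 7 in treated in vivo osteocytes in place of 4. Reprogrammed chondrocytes and osteocytes had 0 without background correction, with an offset of 50, from the value table and at 3-fold, and reprogrammed osteocytes 0 with probes averaged. Differentiated adipocytes, at 9, had 3 without background correction, 5 with an offset of 50 and from the value table, 4 with probes averaged and 2 at 3-fold. Differentiated chondrocytes had 4 without background correction. Differentiated osteocytes had 0 without background correction, 3 with an offset of 50, from the value table and with probes averaged, and 2 at 3-fold. Treated in vivo osteocytes had 1 without background correction and with an offset of 50, 2 from the value table and 0 at 3-fold. Untreated in vivo osteocytes, at 7, had 4 without background correction, with an offset of 50 and at 3-fold. Against a lone MSC array the counts were 3 to 6 in reprogrammed adipocytes, 1 to 8 in reprogrammed chondrocytes, 3 to 4 in reprogrammed osteocytes, 10 to 12 in differentiated adipocytes, 11 to 12 in differentiated chondrocytes, 8 to 10 in differentiated osteocytes, 6 to 8 in treated in vivo osteocytes and 9 to 12 in untreated in vivo osteocytes.

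Signal limits these results. Of the 28 members 16 were detected on 1 to 3 arrays, so most folds are bounds. The 2 MSC arrays are the only replicates of a group.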
